A study of Mus musculus with 2 samples.

Results

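The solute carriers of C2C12 cells outside the mitochondrial carrier family were described from 2 long-read RNA libraries. Members were selected on their read counts in these libraries. They were the annotated genes whose symbol reads Slc, a family number, the letter a and a member number, without Slc25a, and whose reads summed to at least 10 over both libraries. This gave 85 members of 302 such names in GENCODE M21. All 85 were protein coding, and each had reads in both libraries. A further 61 names had 1 to 9 reads and 156 had none. The letters of the rule leave out other branches of the Slc35 family, of which 9 genes (Slc35b to Slc35f) had at least 10 reads, and carriers with other symbols.

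C2C12 is a mouse myoblast line, obtained here from ATCC, which the labels trace to injured thigh muscle of C3H mice. Its total RNA was read by long-read sequencing in 1 group of 2 biological replicates with 1 library each, and the labels name no treatment. Neither the platform nor the stage of differentiation is stated there. Every comparison of samples is therefore replicate 2 against replicate 1, and each p-value reflects how finely reads were counted, not how cultures vary. The libraries held 773408 and 722647 reads on annotated genes. Levels are CPM, with these reads as the total, given as mean ± SD with n = 2, and 3 counts correspond to 3.88 and 4.15 CPM. Since 1 read stands for 1 cDNA molecule, levels were not divided by length, although capture may vary with length. In bulk RNA, fewer cells that express a gene and less of its RNA per cell cannot be told apart. The 5 markers of the muscle lineage had between 108 and 1187 reads per library. Among them were Des, the muscle intermediate filament (881 and 1187 reads), and Cdh15, a muscle cadherin (158 and 168 reads). The others were Myog (438 and 454 reads), Myod1 (119 and 127) and Mymk (108 and 110). Of the 5, Des alone was called between the libraries, higher in replicate 2 by 0.53 on the log2 scale (adjusted p = 5.84e-14, exact binomial test). Of 10 markers of endothelial, blood, epithelial, glial, fat and cartilage cells, 6 had no read. The other 4 added up to 1 read in replicate 1 and 4 reads in replicate 2.

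Solute carriers are membrane proteins that move metals, nucleosides, amino acids, sugars, lipids and ions across the plasma membrane and the membranes of organelles. Some let their substrate diffuse down its own gradient, others couple their substrate to a gradient of sodium, protons or chloride, and a few are heavy chains or scaffolds without transport activity of their own. In muscle and its precursor cells they supply glucose, lactate exchange, taurine, creatine, fatty acids and the amino acids that feed growth signalling. Zinc carriers fall into the ZIP family (Slc39), which brings zinc into the cytosol, and the ZnT family (Slc30), which takes it out.

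Coding stretches that differ between the transcripts of a member are shown first, for the members whose isoforms are described further on. They were read from the GENCODE M21 transcripts of GRCm38, and every stretch lies in coding sequence. In Slc29a1, the equilibrative nucleoside transporter ENT1, the exon at chr17:45588996-45589074 (minus strand) ends in 6 bases that some transcripts leave out, shown in capitals between 21 bases on each side.
Slc29a1-201: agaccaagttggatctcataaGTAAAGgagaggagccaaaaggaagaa
Slc29a1-202: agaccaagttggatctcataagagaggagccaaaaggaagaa
In Slc39a13, a ZIP-family zinc transporter of the secretory pathway, transcript Slc39a13-203 holds 39 more bases at chr2:91065701-91065739 (minus strand), here in capitals.
Slc39a13-203: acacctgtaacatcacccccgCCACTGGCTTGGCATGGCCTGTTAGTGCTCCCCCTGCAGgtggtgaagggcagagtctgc
Slc39a13-201: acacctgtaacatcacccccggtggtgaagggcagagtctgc
In Slc44a2, a choline transporter-like protein, and in Slc3a2, the heavy chain CD98, different first exons give different starts of the coding sequence. Capitals mark the coding bases of the first coding exon, at chr9:21337926-21337962 and chr9:21320821-21320851 (plus strand) and at chr19:8722984-8723095 (minus strand). The lower-case bases belong to the next exon.
Slc44a2-201: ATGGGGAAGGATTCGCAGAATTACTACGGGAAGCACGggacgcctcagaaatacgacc
Slc44a2-210: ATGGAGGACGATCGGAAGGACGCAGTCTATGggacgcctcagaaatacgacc
Slc3a2-202: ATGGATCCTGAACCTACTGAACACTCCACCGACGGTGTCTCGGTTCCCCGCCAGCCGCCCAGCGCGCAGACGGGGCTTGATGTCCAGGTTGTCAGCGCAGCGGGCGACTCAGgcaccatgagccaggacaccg
The capitals of the Slc44a2 transcripts come from different exons, with start codons at different positions, and both run into the same second exon.

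Members together took 3708 reads in replicate 1 and 3820 in replicate 2, which was 0.479% and 0.529% of the annotated-gene reads. Their summed level was 5040 ± 348 CPM. Of the members 9 lay above 100 CPM, 39 between 20 and 100 CPM, and 37 below 20 CPM. Their median level was 23.4 CPM, against 37.1 CPM over all 8940 annotated genes with at least 10 reads. A single gene, Slc29a1, held 20.5% and 22.2% of the member reads. Members came from 38 of the 47 families with a matching name. They lay on 20 chromosomes, most often on chromosome 11 with 10 members. Levels tended to be lower for members with longer annotated transcripts (Spearman's rho −0.26 and −0.32 over the 85 members, with the libraries' capture and length in common).

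Metal carriers had the highest summed level of the substrate classes, 1477.9 CPM in replicate 1 and 1493.1 CPM in replicate 2 over 19 members. Carriers of vitamins, nucleosides and cofactors followed with 1124.9 and 1347.8 CPM over 8 members, and amino acid carriers with 784.8 and 928.5 CPM over 18. The class of organic ions, bile acids and lipids reached 504 ± 12.7 CPM over 10 members, and the 5 nucleotide sugar carriers reached 304 ± 37.3 CPM. The values of these 5 classes did not overlap between neighbours in this order. The lead of the metal carriers was not kept apart in complete reads, those of full structures as defined below. With these alone, metals had 1160.6 and 1397.2 CPM of complete reads and vitamins, nucleosides and cofactors 1145.2 and 1369.0, which overlapped. Below them stood inorganic ions and pH at 202 ± 17.3 CPM (10 members), sugars and polyols at 191 ± 10.1 CPM (7 members) and carboxylates with acetyl-CoA at 182 ± 15.3 CPM (5 members). These 3 classes overlapped in their values, and their order is not settled. The 3 adaptor and scaffold proteins that carry solute carrier symbols summed to 78.5 ± 10.4 CPM.

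**Figure D1:**
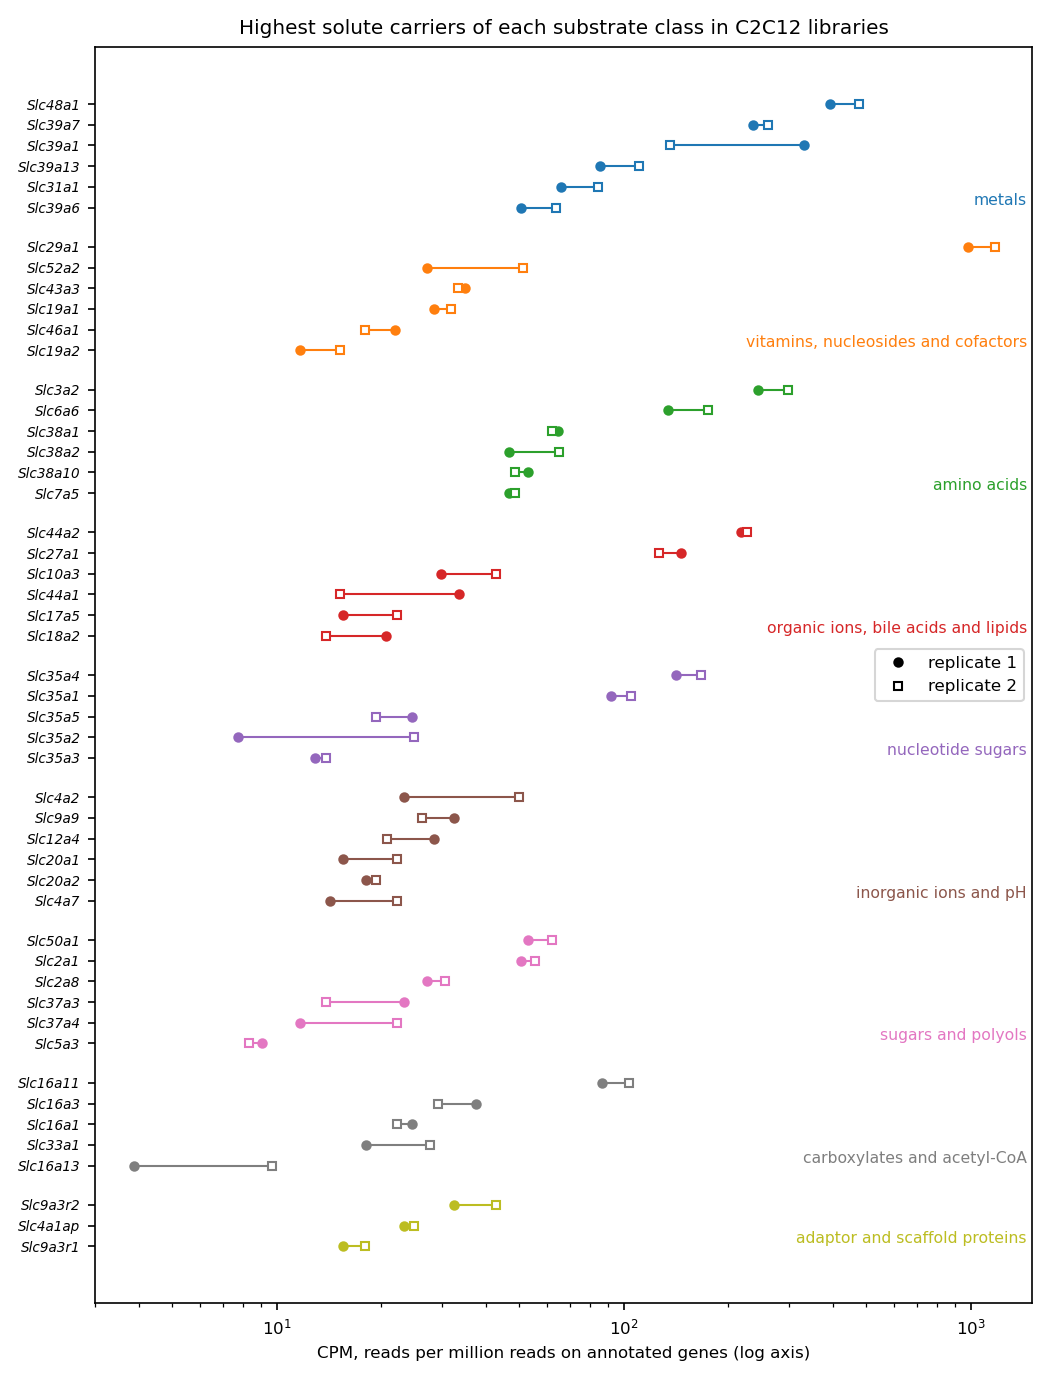
Levels of the up to 6 highest members of each substrate class in CPM on a log axis, with replicate 1 as filled circles, replicate 2 as open squares and a line between them. Slc29a1 stands furthest to the right with a mean of 1079 CPM, and Slc39a1 has the widest gap among members above 100 CPM.

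Among the metal carriers the highest was Slc48a1, which moves heme out of endosomes and lysosomes. It lay at chr15:97778520-97792692 and had 304 and 345 reads, or 435 ± 59.6 CPM. Nearly all of its complete reads, 280 of 286 and 323 of 326, were the annotated transcript Slc48a1-201. Slc39a7, the ZIP transporter that releases zinc from the endoplasmic reticulum, had 182 and 188 reads (248 ± 17.6 CPM). Slc39a1, a ZIP transporter of the plasma membrane, had 255 and 98 reads (233 ± 137 CPM), so its libraries were far apart. Slc39a13 had 66 and 80 reads (98.0 ± 17.9 CPM). Slc31a1, the high-affinity copper importer, had 51 and 61 reads (75.2 ± 13.1 CPM), and Slc39a6, a ZIP transporter linked to cell adhesion changes, had 39 and 46 (57.0 ± 9.35 CPM). With 7 ZIP members at 698 ± 95.1 CPM and 5 ZnT members at 193 ± 39.5 CPM, ZIP reads outnumbered ZnT reads in both libraries. Without the single-exon reads described below for Slc39a1, that gene kept 15 and 10 reads. Slc11a2, the iron importer DMT1, had 25 and 23 reads, and Slc40a1, the iron exporter ferroportin, had 10 and 7. Both were picked for mention after their values were seen.

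Slc29a1 was the highest member of all, with 761 reads in replicate 1 and 848 in replicate 2, or 1079 ± 134 CPM. Within its class the other 7 members were far lower. Slc52a2, a riboflavin transporter, had 21 and 37 reads (39.2 ± 17.0 CPM), and Slc43a3, a purine nucleobase transporter, had 27 and 24 (34.1 ± 1.20 CPM). The reduced folate carrier Slc19a1 had 22 and 23 reads, the proton-coupled folate transporter Slc46a1 had 17 and 13, and the thiamine transporter Slc19a2 had 9 and 11. The values of Slc52a2 overlapped those of Slc43a3 and Slc19a1, while Slc46a1 and Slc19a2 lay below Slc43a3 and Slc19a1 in both libraries. The nucleoside transporter Slc29a3 of lysosomes had 6 and 10 reads, while Slc29a2 stayed outside the rule with 6 and 3.

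The amino acid class was led by Slc3a2, the heavy chain that brings system L light chains to the surface, with 189 and 215 reads (271 ± 37.6 CPM). Slc7a5, the LAT1 light chain that pairs with it, had 36 and 35 reads (47.5 ± 1.33 CPM). Slc6a6, the taurine transporter, came between them with 104 and 126 reads (154 ± 28.2 CPM). The system A carriers of small neutral amino acids, which lie as neighbours 44478 bases apart on chromosome 15, overlapped in level. Slc38a1 had 50 and 45 reads (63.5 ± 1.68 CPM) and Slc38a2 had 36 and 47 (55.8 ± 13.1 CPM). Slc38a10, of the same family, had 41 and 35 reads (50.7 ± 3.24 CPM). Its counts include 10 and 9 reads on a model of 1 base, which gives them no structure. The creatine transporter Slc6a8 lay at 10 and 7 reads, with 2 and 1 of them complete.

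In the class of organic ions and lipids, Slc44a2 had 168 and 164 reads (222 ± 6.88 CPM), and Slc27a1, the fatty acid transport protein FATP1, had 113 and 91 (136 ± 14.3 CPM). Slc10a3, a bile acid family member of uncertain substrate, had 23 and 31 reads. The choline transporter-like Slc44a1 had 26 and 11, and Slc17a5, the lysosomal sialic acid exporter sialin, had 12 and 16. Slc18a2, the vesicular monoamine transporter VMAT2 of neurons, is listed with 16 and 10 reads. All of these lay on a single-exon model at chr19:59293812-59297178, which runs 1166 bases past the annotated end of Slc18a2 and stops at the annotated 3' end of its convergent neighbour Pdzd8 (chr19:59297178-59345780, minus strand, 5 and 1 reads). No complete read was assigned to Slc18a2, so its membership does not rest on a spliced transcript.

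All 5 nucleotide sugar carriers that the rule can take were members. Slc35a4 had 109 and 121 reads (154 ± 18.7 CPM), and Slc35a1, the Golgi carrier of CMP-sialic acid, had 71 and 76 (98.5 ± 9.45 CPM). Slc35a5 had 19 and 14 reads, the UDP-galactose carrier Slc35a2 had 6 and 18, and the UDP-N-acetylglucosamine carrier Slc35a3 had 10 and 10. The 9 genes of the branches Slc35b to Slc35f add 665 and 782 CPM that are not in these sums.

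Among carriers of inorganic ions no member passed 50 reads in a library. The anion exchanger Slc4a2 had 18 and 36 reads (36.5 ± 18.8 CPM), the endosomal proton exchanger Slc9a9 had 25 and 19, and the potassium-chloride cotransporter Slc12a4 had 22 and 15. The phosphate importers Slc20a1 and Slc20a2 had 12 and 16 reads and 14 and 14 reads. The sodium bicarbonate cotransporter Slc4a7 had 11 and 16 reads, with 2 and 1 complete. Of these, 5 and 11 belonged to a 22-exon model that follows the annotated exons from their 5' side and ends 13538 bases before the end of the gene.

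For sugars, Slc50a1, a sugar efflux carrier, had 41 and 45 reads (57.6 ± 6.55 CPM), and Slc2a1, the glucose transporter GLUT1, had 39 and 40 (52.9 ± 3.48 CPM). The values of both genes overlapped. Slc2a8, an intracellular glucose transporter, had 21 and 22 reads, and the sugar-phosphate exchangers Slc37a3 and Slc37a4 had 18 and 10 reads and 9 and 16 reads. The myo-inositol transporter Slc5a3 is listed with 7 and 6 reads. It lies inside Mrps6, a mitochondrial ribosomal protein gene on the same strand with 222 and 207 reads, and 6 and 5 of the Slc5a3 reads were single-exon. Among carboxylate carriers, Slc16a11 had 67 and 75 reads (95.2 ± 12.1 CPM). The lactate carriers Slc16a3 (MCT4) and Slc16a1 (MCT1) had 29 and 21 reads and 19 and 16 reads. The acetyl-CoA carrier Slc33a1 had 14 and 20. Slc16a13, the convergent neighbour of Slc16a11 at a distance of 371 bases, had 3 and 7. The adaptor proteins were Slc9a3r2 (NHERF2) with 25 and 31 reads, Slc4a1ap (kanadaptin) with 18 and 18, and Slc9a3r1 (NHERF1) with 12 and 13. None of these 3 is a transporter.

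The read minimum chose the members, so values beside it are given as they stand. Slc16a13 and Slc36a4 entered with 10 reads, and Slc45a4, Slc10a7, Slc43a1 and Slc38a9 with 11. Slc29a2, Slc38a6 and Slc41a1 stayed out with 9 reads, and Slc15a2, Slc37a2, Slc2a6, Slc22a5 and Slc9a5 with 8. Slc45a4 had no complete read among its 7 and 4.

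Replicate 2 was compared with replicate 1 by an exact binomial test per gene, adjusted over all 8940 genes by the Benjamini-Hochberg method. Of the 85 members 2 were called at an adjusted p under 0.05, or 2.35%, against 3.98% of all genes tested. The called genes were Slc29a1 and Slc39a1, in opposite directions. Only Slc39a1 among them also differed by at least 2-fold, which held for 0.794% of all genes. Higher calls in replicate 2 made up 1.39% of all genes and lower ones 2.6% (124 and 232 genes). With DESeq2 size factors this split was 45 and 337. Slc29a1 was higher in replicate 2 by 0.25 on the log2 scale (counting SE 0.07, adjusted p = 0.0158, two-sided exact binomial test). The call was lost with TMM scaling (adjusted p = 0.0602) and with DESeq2 size factors (adjusted p = 0.302, same exact test). Slc39a1 was lower in replicate 2, with a log2 ratio of −1.28 (counting SE 0.17, adjusted p = 1.82e-12, same exact test). An unadjusted p under 0.05 was reached by 9 members (10.6%), against 13.9% of all genes. Of the members 55 were higher in replicate 2 (64.7%), against 54.7% of all genes, and the median log2 ratio was 0.16 for members and 0.06 for all genes.

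**Figure D2:**
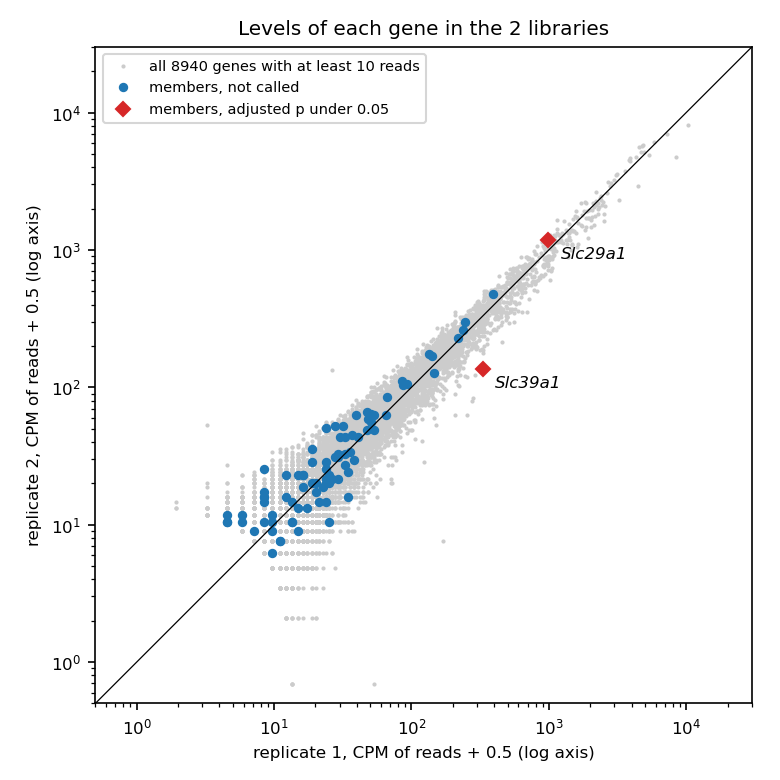
Level of each gene in replicate 1 (horizontal) and replicate 2 (vertical), as CPM of reads + 0.5 on log axes with the line of equality. Grey points are all 8940 genes tested, blue circles are members that were not called, and red diamonds are Slc29a1, just above the line, and Slc39a1, below it.

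The Slc39a1 difference lay mostly in reads of a single exon. Of its reads 240 of 255 in replicate 1 and 88 of 98 in replicate 2 belonged to single-exon models of the Genomic class, which TALON keeps apart from matches to annotated transcripts. These models lay inside the last exon and ended at the annotated end of the gene, at chr3:90252688-90253612 in replicate 1 and chr3:90253081-90253612 in replicate 2. Complete reads, all of transcript Slc39a1-201, numbered 14 and 8. On complete models alone the log2 ratio was −0.75 with an adjusted p = 0.718 (exact binomial test). With so few reads this test cannot tell no difference from the −1.28 of all reads, and the direction was the same. On the opposite strand, unannotated antisense models took 117 and 52 reads, all but 1 at the same end. They were thus higher in the same library as the single-exon sense reads. In replicate 2, 51 of these reads lay on a model at chr3:90253081-90253612, the span of the sense model there. The antisense model of replicate 1 spanned chr3:90253123-90253612. The part of the antisense models in the result was not tested.

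Single-exon reads of the Genomic and incomplete-match (ISM) classes made up 17.3% of member reads in replicate 1 (95% Wilson interval 16.1 to 18.6%) and 9.06% in replicate 2 (8.19 to 10.01%). Without Slc39a1 they were 11.6% and 6.93%. Over all annotated genes they were 7.07% and 4.12%, so replicate 1 held more of them in members and in all genes alike. Among models with at least 5 reads, those of Slc7a5, Slc6a6, Slc44a2 and Slc39a7 ended at most 4 bases from the annotated 3' end. Others ended further inside the gene, as in Slc48a1 (893 and 891 bases short, with 14 and 11 reads), Slc27a1 (597 bases short in both libraries, with 7 and 8 reads) and Slc44a1 (54660 bases short, with 8 reads in replicate 1). In Slc3a2 a model 705 bases short had 7 reads in replicate 1 and another, 6274 bases short, had 6 in replicate 2. Over models of any size, Slc7a5 had 18 and 12 single-exon reads among 36 and 35, and Slc6a6 had 18 and 31 among 104 and 126. Slc44a2 had 29 and 11, and Slc39a7 25 and 5. For Slc38a2 the class name differed between libraries. Its single-exon reads were a Genomic model with 19 reads in replicate 1 and an incomplete match with 17 reads in replicate 2, and both reached the annotated 3' end of the gene at base 96687392 of chromosome 15. When only the Genomic class was left out, Slc38a2 had 17 and 47 reads and was called (log2 ratio 1.51, adjusted p = 0.00379, exact binomial test). When single-exon reads of both classes were left out, it had 16 and 30 reads and was not (log2 ratio 0.94, adjusted p = 0.308, same test).

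**Figure D3:**
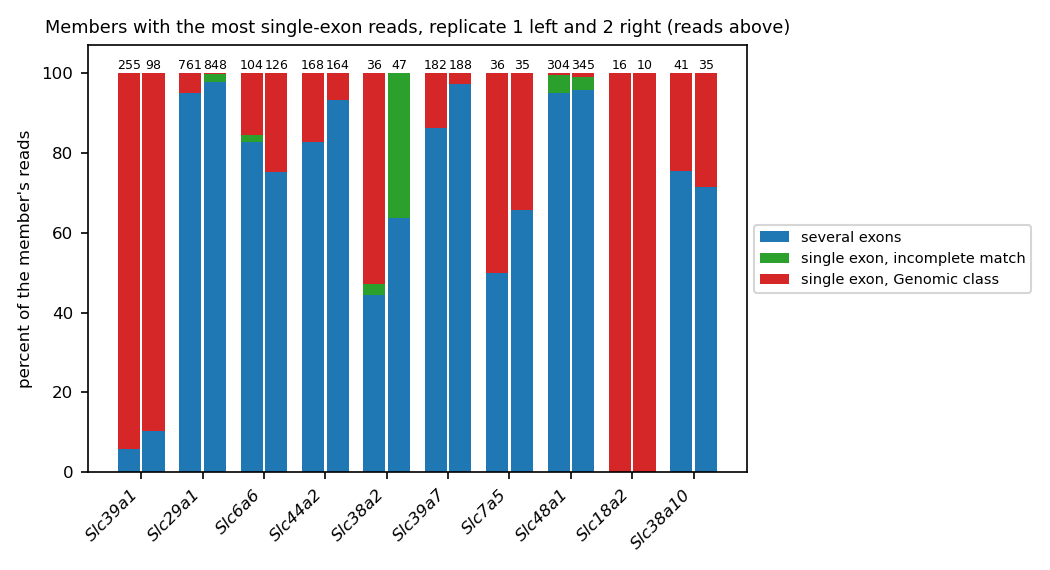
Share of each member's reads on models with several exons (blue), single-exon incomplete matches (green) and single-exon Genomic models (red), for the 10 members with the most single-exon reads, replicate 1 left and replicate 2 right, with the member's reads above each bar. Slc39a1 and Slc18a2 are nearly or wholly single-exon, and the colour of the single-exon part of Slc38a2 differs between libraries.

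Complete models, which are the annotated transcripts and the unannotated classes NIC (annotated splice sites in a new combination) and NNC (with an unannotated splice site), took 72.4% of member reads in replicate 1 (71.0 to 73.9%) and 81.0% in replicate 2 (79.8 to 82.3%). Without Slc39a1 the member shares were 77.4% and 83.0%. Over all genes the shares were 84.0% and 88.3%. NIC models were 13.2% and 15.7% of member reads, against 3.17% and 3.62% over all genes. Without Slc29a1 they were 5.26% and 6.39%. The complete share was lower for members with longer transcripts. It was 75.1% and 85.2% in the 28 members whose longest annotated coding transcript measured 1022 to 2842 bases, and 65.7% and 68.8% in the 29 with 4163 to 11790 bases. The rank correlation of length with the complete share was −0.41 and −0.36 across members, which share libraries and depth.

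Slc29a1 (chr17:45585200-45599606, minus strand) owed its variety to 2 optional parts read on the same molecules. The first is the 6 coding bases printed above. The second is an exon of 101 bases at chr17:45593332-45593432, which overlaps no annotated coding sequence. Complete reads whose first exon had the splice site of Slc29a1-202 and which could be classified for both parts numbered 594 of 650 in replicate 1 and 704 of 763 in replicate 2. Reads with neither part were 34.7% (31.0 to 38.6%) and 34.4% (31.0 to 38.0%). Reads with the optional exon alone were 31.0% (27.4 to 34.8%) and 35.5% (32.1 to 39.1%). Those with the 6 bases alone were 17.0% (14.2 to 20.2%) and 13.6% (11.3 to 16.4%), and those with both parts 17.3% (14.5 to 20.6%) and 16.5% (13.9 to 19.4%). All intervals of replicate 1 overlapped those of replicate 2.

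Reads without the 6 bases were the more frequent form in both libraries, since the 6 bases were present in 34.3% (30.6 to 38.3%) and 30.1% (26.8 to 33.6%). The optional exon was near an even split, at 48.3% (44.3 to 52.3%) and 52.0% (48.3 to 55.7%). Its share was 50.5% and 54.7% of reads with the 6 bases, and 47.2% and 50.8% of reads without them, with overlapping intervals in each library. The most read single structure of the gene in replicate 2 was unannotated, with the optional exon and without the 6 bases (171 and 229 reads). It joined annotated introns only. Slc29a1-202, with neither part, had 177 and 217 reads. A second unannotated structure with both parts had 93 and 107 reads, and Slc29a1-201, with the 6 bases alone, had 85 and 82. Another unannotated structure, of 12 exons, had 9 and 12 reads. Single-exon reads at the 3' end were Genomic in replicate 1 (38 reads) and mostly incomplete matches in replicate 2 (17 of 18).

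**Figure D4:**
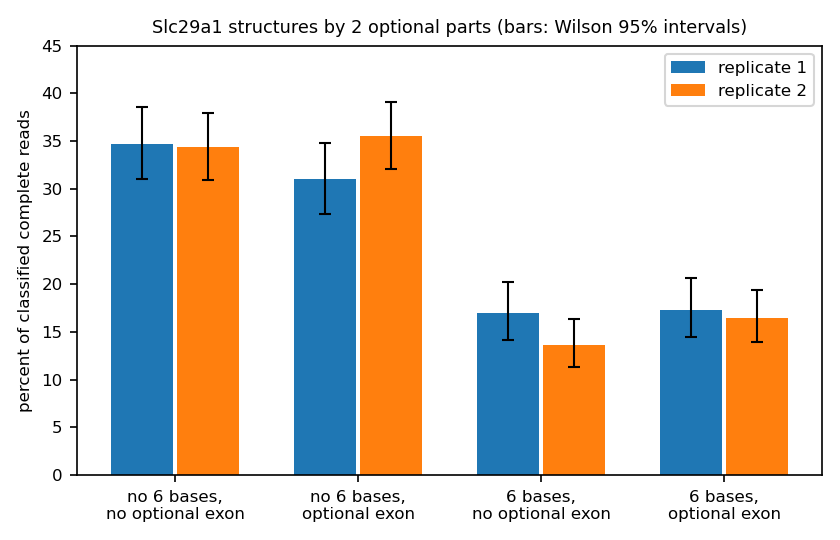
Share of classified complete Slc29a1 reads with each combination of the 6 coding bases and the optional exon, in percent, with Wilson 95% intervals as error bars, replicate 1 blue and replicate 2 orange. Forms without the 6 bases reach 31.0 to 35.5% each and forms with them 13.6 to 17.3%, and the intervals of the libraries overlap for every form.

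Of the 26 members with at least 20 complete reads in each library, 11 used more than 1 isoform, each at 10% or more of the complete reads in both libraries (42.3%). Over all 4281 genes with this depth the share was 21.8%. The count was 5 of 26 with a limit of 20% in place of 10%, which was not counted over all genes. Some of the 11 rest on few reads, such as Slc11a2-205 with 3 and 4 and Slc1a3-207 with 4 and 4. Slc44a2 used alternative first exons. Slc44a2-201 had 64 and 73 reads (51.6% and 51.8% of complete reads), and Slc44a2-210, which begins further upstream, at base 21320698 of chromosome 9, had 30 and 34 (24.2% and 24.1%). The shares of both transcripts were thus nearly equal between libraries. Reads were not summed by first exon. An unannotated Slc44a2 structure whose first intron begins at base 21337963, just after the first coding exon of Slc44a2-201, had 9 and 3 reads. Slc39a13-201 had 22 and 34 reads (44.9% and 46.6%), and Slc39a13-203, with the 39 coding bases shown above, had 10 and 23 (20.4% and 31.5%). Slc35a4 was led by Slc35a4-206 with 62 and 59 reads, followed by Slc35a4-202 with 10 and 19 and the short non-coding Slc35a4-204 with 12 and 4.

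Slc27a1 was an exception among members with many reads. Its most read annotated transcripts were Slc27a1-205, with 32 and 24 reads, and Slc27a1-202, with 13 and 9, and GENCODE gives both as retained introns without a coding sequence. An unannotated 8-exon structure with 1 unannotated intron had 9 and 8 reads. Complete reads were only 63.7% and 72.5% of the Slc27a1 reads. Outside them, an incomplete 12-exon model that begins inside the gene had 12 and 6 reads, and a 10-exon one had 9 in replicate 1. Of the 82 members with a read on an annotated transcript, 80 had a protein-coding one in the lead, and the other was Slc6a8 at 2 and 1 reads. Over all members 71.7% and 71.4% of complete reads lay on protein-coding transcripts, 24.9% and 26.2% on unannotated structures, and 2.31% and 1.71% on retained introns. Slc38a10 had an unannotated structure of 16 exons with 5 and 7 reads beside Slc38a10-201 with 13 and 6.

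Isoform use was compared between libraries by Fisher's exact test of the main structure against all others, adjusted over 4011 genes. None of the 26 members tested was called for isoform use, against 0.0997% of all genes (4 genes). By the same Fisher's exact test, 1 of the 26 members had an unadjusted p under 0.05, against 167 of the 4011 genes. This was Slc3a2, in which Slc3a2-201 had 144 of 165 complete reads in replicate 1 and 154 of 200 in replicate 2 (87.3% and 77.0%, unadjusted p = 0.0142, adjusted p = 0.897). The upstream start Slc3a2-202, whose coding start is printed above, had 7 and 25 reads. The difference did not pass the adjusted threshold.

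**Figure D5:**
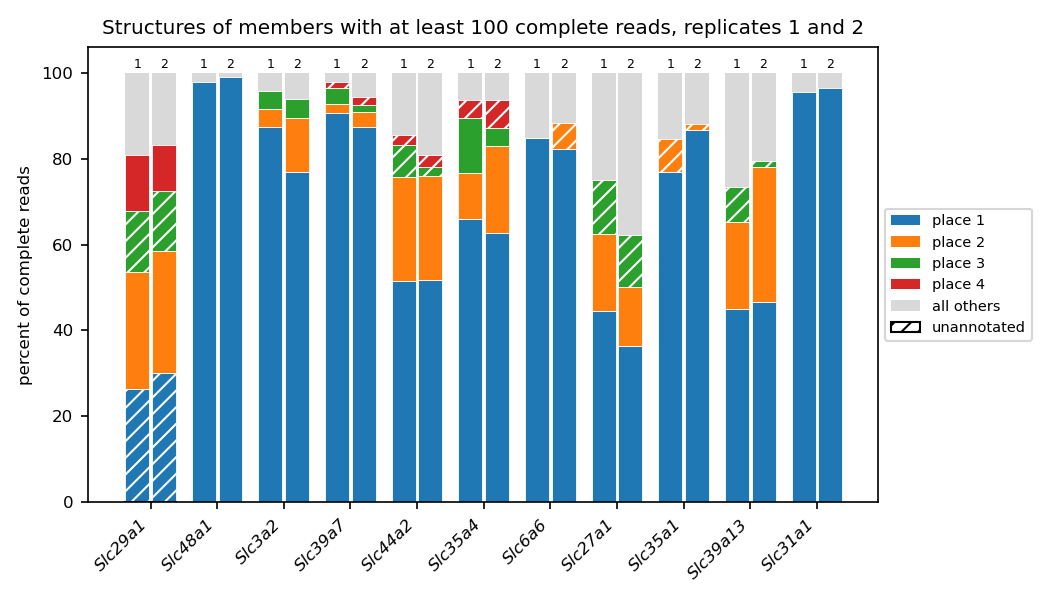
Share of complete reads on the up to 4 most read structures of each member with at least 100 complete reads over both libraries, replicate 1 left and replicate 2 right, with hatching for unannotated structures and grey for all other structures. Slc48a1 and Slc31a1 are nearly a single transcript, while Slc29a1, Slc44a2, Slc27a1 and Slc39a13 are divided among several in both libraries.

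Members had 550 unannotated complete structures in all, of which 90 were seen in both libraries (16.4%, against 15.9% over all genes). With at least 5 reads in one library and 1 in the other, 16 structures of 12 members remained. Of these, 5 had at least 5 reads in each library, namely 3 of Slc29a1 and 1 each of Slc27a1 and Slc38a10, all described above.

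For some members, incomplete models of several exons were seen in both libraries. In Slc39a6 a 5-exon model following the annotated start and ending 16436 bases short of the gene's end had 10 and 15 reads, beside 24 and 23 of Slc39a6-201. In Slc16a11 a 3-exon model had 17 and 18 reads and a 5-exon model 14 and 15, both beginning inside the gene and reaching its 3' end, against 9 and 16 for Slc16a11-211. These genes were picked for mention after their reads were seen.

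The sequence just before the RefSeq start sites is shown for Slc29a1, the highest member, and for both starts of Slc44a2, whose first exons are compared above. The 150 bases before the RefSeq start (GRCm38.p6) were taken, and these starts lay 40, 0 and 21 bases from those in GENCODE. In Slc29a1 and Slc44a2-210 the GENCODE start lies upstream, so the last 40 and 21 bases of their windows lie past that start. Capitals mark matches of 3 motifs, each searched on both strands. The first is the GC box, GGGCGG. The second is the CCAAT box, searched by the letters of its name. For the third, the TATA box, the search used TATAAA. Over 32851 RefSeq windows of the same length, 28.6% held the first, 24.5% the second and 7.57% the third. The windows lie at chr17:45595531-45595680 (minus strand), chr9:21337678-21337827 and chr9:21320569-21320718 (plus strand).
Slc29a1: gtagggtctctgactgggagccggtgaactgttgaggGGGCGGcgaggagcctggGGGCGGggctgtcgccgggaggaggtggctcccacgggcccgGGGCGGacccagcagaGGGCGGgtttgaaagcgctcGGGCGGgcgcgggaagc
Slc44a2-201: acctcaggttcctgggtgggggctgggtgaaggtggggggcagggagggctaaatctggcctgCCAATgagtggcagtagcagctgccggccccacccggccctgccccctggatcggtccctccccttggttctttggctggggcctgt
Slc44a2-210: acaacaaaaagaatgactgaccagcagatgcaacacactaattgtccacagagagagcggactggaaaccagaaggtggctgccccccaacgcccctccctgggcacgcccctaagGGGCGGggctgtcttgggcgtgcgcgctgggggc
The Slc29a1 window held 5 GC boxes, the window of Slc44a2-201 held 1 CCAAT box and no GC box, and that of Slc44a2-210 held 1 GC box. None of the 3 held these TATA letters. The GC boxes nearest the end of the Slc29a1 window lie within its last 40 bases, which belong to the GENCODE first exon of Slc29a1-202. Of the members 68 had a RefSeq window. Their median GC content was 65.8%, against 57.2% in 164 matching genes that were no members and 54% over 27025 symbols, and GC boxes were in 63.4%, 32.7% and 28.6% of the windows. This is a description, and reads chose the members.

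Of 19 genes that assist or regulate solute carriers 18 had reads and 16 were tested, and none was called by the exact binomial test. The highest was Bsg, basigin, the chaperone of lactate carriers, with 905 and 826 reads (1157 ± 19.2 CPM). Its relative Emb had 29 and 33 reads. Of the sodium pump, whose gradient drives many carriers, the beta subunit Atp1b3 had 128 and 127 reads and Atp1b1 had 60 and 70. Chp1, a cofactor of sodium-proton exchangers, had 62 and 95 reads (adjusted p = 0.0556, exact binomial test), and Arl6ip5, a modulator of glutamate transport, had 138 and 118. Among transcription factors, Atf4, which acts on amino acid carriers, had 201 and 214 reads, Nfe2l2 96 and 126, Hif1a 52 and 42, Nfat5 8 and 6, and the zinc sensor Mtf1 6 and 4. Txnip, which limits glucose uptake, had 23 and 13 reads, and the ubiquitin ligase Nedd4l had 12 and 8. The scaffolds Slc9a3r1 and Slc9a3r2 also belong to this list.

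Of 28 carriers outside the rule's symbols, 21 had reads, 17 were tested and none was called by the same exact test. They summed to 985 and 1034 CPM. Of 25 carriers typical of nerve, kidney, gut, liver, red cells, lung, ear, thyroid or pigment cells, 24 had no read, which allows up to 3.88 and 4.15 CPM each. The exception was the iodide transporter Slc5a5 with 1 and 2 reads. Of 3 carriers of mature muscle, the insulin-responsive glucose transporter Slc2a4 had 1 and 0 reads, and Slc8a3 and Slc36a2 had none.

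In all 16 members overlapped another gene with at least 10 reads, 14 of them on the opposite strand. Slc10a3 overlapped Ubl4a (81 and 81 reads) and Slc5a3 overlapped Mrps6 on the same strand. Slc39a13 overlapped Psmc3, a proteasome gene with 680 and 685 reads on the opposite strand, over 4579 bases. Whether such reads add to the members' counts was not tested.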

How the data were processed

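Per the file headers, the deposited tables hold the authors' raw count of long reads per transcript model in each library, on mm10 with GENCODE M21 and in TALON classes. Which aligner was run, with which settings, is not given in the sources used here. A gene's reads were summed over all models, and CPM were taken over reads on annotated genes. Complete models were Known, NIC and NNC, and unannotated ones counted as the same structure when all their introns were identical. Genes with at least 10 reads over both libraries entered an exact binomial test, two-sided (scipy 1.17.1), with an offset of 0.5 reads in log2 ratios. Isoform use was tested by Fisher's exact test in genes with 20 complete reads in each library. P-values were adjusted by Benjamini-Hochberg at 0.05. Wilson 95% intervals and floors of 3 counts cover counting error only. edgeR 4.0.16 and DESeq2 1.42.0 gave alternative scalings, and DESeq2 size factors were 1 and 1. The gene and isoform tests were also run on counts simulated with counting error alone. This checks the code and says nothing on variation between cultures.

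The rule named the 6 highest members of each class, called members, members with several used isoforms and 100 complete reads, unannotated structures with 5 reads in each library, genes beside the read minimum and assisting genes. Other genes were chosen after their values were seen. Some genes that the rule names are not reported here. The members, lists and alternatives were chosen with earlier results of these data known, and the class of Slc4a1ap was set after its reads were seen.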

Additional observations from a re-analysis of the deposited data

Results flagged for a closer look

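Unannotated antisense models, which enter no comparison of members, passed 3 reads in both libraries opposite 3 of the 25 members that had any. Opposite Slc39a1 they had 117 reads in replicate 1 and 52 in replicate 2, all but 1 at the 3' end of the gene, beside 255 and 98 sense reads. Opposite Slc18a2 they had 21 and 8 reads, beside 16 and 10 sense reads, and the largest antisense model of each library began at base 59297178 of chromosome 19, where the sense model ended. Opposite Slc5a3 they had 6 and 14 reads, beside 7 and 6 sense reads. The libraries have no control sample, so these counts are set only against the limit that a count of 0 allows. Whether they are transcripts of the opposite strand or reads of wrong orientation was not tested.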

How the results depend on the processing

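No paired analysis was possible because the series has 1 group. Of the 2 members called between libraries, 1 was called with TMM scaling, 1 with DESeq2 size factors, 1 on complete models and 1 without single-exon incomplete models, the last added after seeing the data. Slc39a1 alone was called under both scalings and Slc29a1 alone on complete models and without single-exon models. Without the Genomic class, also added after seeing the data, 2 were called, Slc29a1 and Slc38a2. Members tested numbered 85 under each scaling, 71 on complete models, 76 without single-exon incomplete models and 79 without the Genomic class. The shares called over all genes tested were 4.34% with TMM scaling, 4.27% with DESeq2 size factors and 4.36% on complete models. They were 4.07% without single-exon incomplete models and 4.75% without the Genomic class. The 85 members became 112 at 5 reads, 65 at 20 reads and 71 on complete models. On complete models, as CPM of complete reads, the class sums over the members then left were 1274 CPM for metals, 1257 for vitamins, nucleosides and cofactors, 699.9 for amino acids, 418 for organic ions and lipids, 120 for inorganic ions, 169 for sugars and 124 for carboxylates, and inorganic ions then ranked below the latter 2. The causes were not tested. With every matching gene that had a read they were 1506 CPM for metals, 525 for organic ions and lipids, 246 for inorganic ions and 209 for sugars. With reads on all models as the total, metals came to 1456 CPM. When Slc4a1ap was moved from the adaptors to the inorganic ions, a choice added after seeing the data, these came to 54.4 and 226 CPM. Over each library alone, the class sums stayed within 1 SD of the mean, as 2 values must, and metals led in each. Members with several used isoforms were 5 of 26 at a share of 20%, 4 of 9 at 50 complete reads, and 12 to 13 of 26 with the share asked of 1 library only. These alternatives were counted for members only, so no share over all genes stands beside them. None of 9 to 45 members was called for isoform use under the other read minimums or with annotated transcripts only, with 1 at an unadjusted p under 0.05 each time. How many of all genes had such an unadjusted value was not counted for these settings. Unannotated structures seen in both libraries were 90 at 1 read each and 5 at 5 reads each. Depth limits the 37 members under 20 CPM most.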

Other observations

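Several widely studied carriers lay below the read minimum, and they were picked for mention after their reads were seen. Slc30a1, the zinc exporter of the plasma membrane, had 1 and 1 reads, and Slc12a2, a sodium-potassium-chloride cotransporter, had 0 and 1. Slc7a1, a cationic amino acid carrier, had 6 and 1. Slc7a11, the cystine-glutamate exchanger, had 2 and 1 reads.

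Among carriers with other symbols, Mpc1 and Mpc2, the subunits of the mitochondrial pyruvate carrier, had 134 and 96 reads and 67 and 66 reads. Mfsd1 and Mfsd5 had 104 and 109 reads and 110 and 103 reads, which would place them with the higher members. Of the Slc35 branches outside the rule, Slc35b2, a carrier of the sulfate donor of the Golgi, had 190 and 179 reads, more than any nucleotide sugar carrier among the members. These genes were also chosen after their values were seen.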
